A study of Mus musculus with 8 samples.

Results

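Transcripts of 10 genes that build and regulate microtubules in young neurons, or that work in the growth cone, were followed in MB21 cells, a mouse medulloblastoma line with a ptch mutant genotype. The genes were Dcx, Dclk1, Tubb3, Map2, Mapt, Map1b, Stmn2, Stmn3, Gap43 and Crmp1, taken by name, and all 10 were found among the 55416 gene identifiers of the count table. The cells grew without attachment in DMEM/F12 medium with B27 and were held for 5 days either with 10 uM of DS-1-38, a compound that the series calls derived from benzarone, or with its vehicle DMSO. The groups are called DS38 and DMSO here, and each had 4 libraries made from messenger RNA. Both groups share the one cell line and its ptch mutation, and no group without the tumour mutation is included. Separate cultures are not stated in the labels for the 4 libraries of a group, and the p-values reflect the spread among these libraries, which may be only technical.

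A growing axon extends by adding tubulin dimers to microtubules that reach into the growth cone, the motile tip that senses guidance cues. Microtubule-associated proteins such as those of Map2, Mapt and Map1b bind and bundle the polymer, doublecortin proteins hold its protofilaments together, and stathmins bind free tubulin dimers and promote disassembly. In the developing cerebellum, granule neuron progenitors, the cells from which Hedgehog-driven medulloblastoma arises, switch on this equipment as they leave the cell cycle and migrate inward.

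Promoter sequences are shown for 2 genes that rose, Dcx and Tubb3, and for 2 that fell, Dclk1 and Stmn3, because Dcx and Dclk1 are members of one family and Tubb3 and Stmn3 encode a tubulin and a tubulin-binding protein that moved in opposite directions. The windows come from RefSeq on GRCm38.p6, an earlier build than the GRCm39 named in the submitters' processing notes, and run from 250 bases before to 50 bases after the start of transcription, 5′ to 3′ on the strand of the gene. They lie at chrX:143933170-143933469 on the minus strand for Dcx, chr8:123411303-123411602 on the plus strand for Tubb3, chr3:55242114-55242413 on the plus strand for Dclk1 and chr2:181314451-181314750 on the minus strand for Stmn3. Dcx and Dclk1 each had a further window that is not printed, at chrX:143933075-143933374 and chr3:55461478-55461777. Capitals mark matches to any of the 5 motifs searched on both strands, which did not overlap one another in the printed windows.
Dcx: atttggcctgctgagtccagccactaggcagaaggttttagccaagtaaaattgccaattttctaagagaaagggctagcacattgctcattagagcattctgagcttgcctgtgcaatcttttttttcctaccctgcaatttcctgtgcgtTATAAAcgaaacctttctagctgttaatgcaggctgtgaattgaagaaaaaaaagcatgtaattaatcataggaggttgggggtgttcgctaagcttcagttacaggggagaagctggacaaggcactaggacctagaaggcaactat
Tubb3: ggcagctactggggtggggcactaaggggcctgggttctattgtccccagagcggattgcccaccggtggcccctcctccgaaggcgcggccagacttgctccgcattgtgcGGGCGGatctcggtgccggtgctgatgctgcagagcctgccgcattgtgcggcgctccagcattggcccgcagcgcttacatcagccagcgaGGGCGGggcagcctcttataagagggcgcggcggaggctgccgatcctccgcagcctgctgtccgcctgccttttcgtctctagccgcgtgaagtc
Dclk1: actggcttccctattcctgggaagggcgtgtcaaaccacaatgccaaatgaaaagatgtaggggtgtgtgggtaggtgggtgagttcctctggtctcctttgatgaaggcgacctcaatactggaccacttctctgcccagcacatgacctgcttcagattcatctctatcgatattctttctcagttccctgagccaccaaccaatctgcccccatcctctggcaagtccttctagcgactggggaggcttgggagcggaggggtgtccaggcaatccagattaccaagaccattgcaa
Stmn3: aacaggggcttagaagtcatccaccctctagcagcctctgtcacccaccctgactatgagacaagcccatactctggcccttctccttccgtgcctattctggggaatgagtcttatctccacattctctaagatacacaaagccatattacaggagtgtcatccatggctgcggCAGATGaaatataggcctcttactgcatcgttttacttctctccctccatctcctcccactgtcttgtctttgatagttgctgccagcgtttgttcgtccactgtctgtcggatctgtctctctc

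The motifs were TATAAA, the core of the TATA box, GGGCGG, the GC box, the E-boxes CAGATG and CAGCTG, and GACCACCCA, the site of the Gli factors. The promoter table held windows for 7 of the 10 genes, 10 windows in all, and no entry for Mapt, Stmn2 or Gap43. Dcx, Dclk1 and Crmp1 had more than 1 window each, and those of Dcx overlap and hold the same TATAAA site. TATAAA occurred in the Dcx and Map1b windows and in 13.6% of all 32851 windows of the table. Only exact matches were counted, anywhere in a window, and their distance from the start of transcription was not examined. A match is thus not shown to be a working TATA box, nor its absence the lack of one. GGGCGG occurred in the windows of Tubb3, Map2, Map1b and Crmp1 and in 35.7% of all windows. CAGATG was found for Stmn3 and Map1b and in 17.2% of all windows. Neither CAGCTG, present in 16.3% of all windows, nor GACCACCCA, present in 0.253%, occurred in any of the 10. The G and C content was 43.0% in the printed Dcx window and 67.3% in that of Tubb3, against a median of 52.7% over all windows. No motif occurred for all 5 rising genes that had a window, and of the falling genes Stmn3 had CAGATG and Dclk1 none of the 5.

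Read totals ran from 17142397 to 28476019 counts per library, and the common biological coefficient of variation within groups was 5.53%. In the overall pattern of expression, DMSO replicate 1 and DS38 replicate 1 lay highest on the second principal component, at 15.96 and 21.7. DS38 replicates 3 and 4 lay at its other end, at -16.02 and -14.7, and the remaining libraries from -4.47 to 0.152. Markers of granule neuron progenitors were present, with Atoh1 at 284 CPM and Zic1 at 624 CPM in DMSO, where CPM is a count brought to a common library size with TMM factors. Microglia, endothelial and fibroblast markers were near silence. The 7 microglia and blood markers summed to between 1.20 and 1.63 CPM in DMSO libraries and between 1.63 and 2.27 CPM in DS38 libraries, with Cx3cr1 at 0 counts in all libraries, as was the endothelial marker Cldn5, which allows up to 0.175 CPM of the plain total in the shallowest library, counting error only. The 5 endothelial markers summed to at most 2.61 CPM and the 6 fibroblast and mural markers to at most 4.49 CPM in any library. Astrocyte markers summed to 343 to 385 CPM in DMSO and 348 to 373 CPM in DS38, nearly all of it Slc1a2 and Slc1a3, whereas Aqp4 stood at 0.0128 CPM and Gfap at 1.83 CPM in DMSO.

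Most of the 10 genes were higher after 5 days with the compound, though the family pairs did not move together. Dcx, Tubb3, Map2, Mapt, Map1b, Gap43 and Crmp1 rose, Dclk1 and Stmn3 fell, and Stmn2 did not pass the test. Rises ran from 1.09-fold for Crmp1 to 1.51-fold for Mapt, and the falls were 1.27-fold for Dclk1 and 1.35-fold for Stmn3. In edgeR's quasi-likelihood test, with p-values adjusted by Benjamini-Hochberg over 15133 genes and a threshold of 0.05, 7 of the 10 rose and 2 fell, where 18.8% of all genes tested rose and 20.7% fell, or 39.5% in either direction. The DS38 and DMSO libraries did not overlap for 9 of the 10, as was the case for 36.1% of all genes tested. The median log2 fold change was 0.29 over the 10 genes and -0.01 over all genes tested. All 10 passed the filter on low counts. A stricter filter of 50 counts in 4 libraries called 5491 of 11922 genes, a larger part, with the same 7 rises and 2 falls. The 10 genes were chosen with earlier results of these data known, so these shares are a background and not a test of the set. Of all calls in the data 47.5% were rises, or 64.3% with scaling by library totals only, and the 7 rises and 2 falls were called under that scaling too. These are RNA levels of whole cultures, in which a smaller number of cells of one kind and less RNA in each such cell cannot be told apart.

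**Figure D1:**
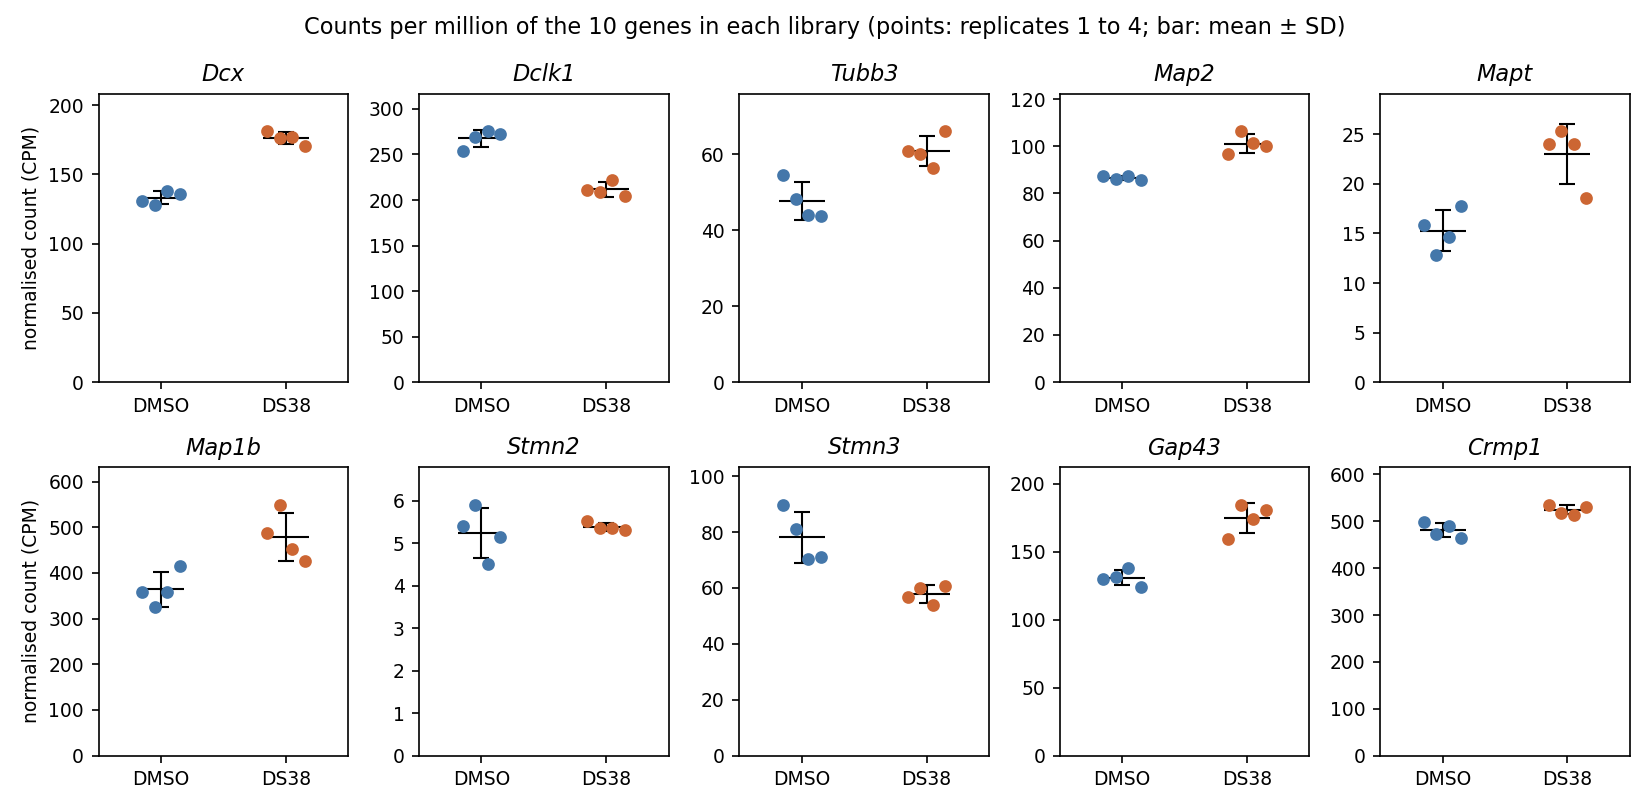
CPM (vertical axis, from 0) of each of the 10 genes in the 4 DMSO and 4 DS38 libraries, with points for replicates 1 to 4 from left to right and a bar for the mean ± SD. The groups are apart for every gene but Stmn2, and in relative terms come closest for Map1b, at 416 CPM in DMSO replicate 4 and 426 CPM in DS38 replicate 4.

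Dcx encodes doublecortin, which stabilises microtubules in migrating neurons. Its level was 131, 128, 138 and 136 CPM in DMSO replicates 1 to 4 and 181, 176, 177 and 171 CPM in DS38 replicates 1 to 4. Every DS38 library stood above every DMSO library, with a gap far wider than the spread inside either group. The log2 fold change (log2FC) was 0.40 ± 0.039 (SE, n = 4 each, edgeR adjusted p = 2.64e-07). Dclk1 encodes doublecortin-like kinase, which joins the same microtubule-binding region to a protein kinase. Its values were 254, 269.7, 276 and 272 CPM in DMSO and 211, 209, 222 and 204 CPM in DS38, so all treated libraries lay below all control libraries. The log2FC of Dclk1 was -0.34 ± 0.041 (SE, edgeR adjusted p = 3.25e-06). RefSeq gives Dclk1 starts at separate places, and counts per gene do not separate the transcripts that begin there.

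The opposite moves of Dcx and Dclk1 changed the make-up of their family. As a share of the reads per length of Dcx, Dclk1, Dclk2 and Dclk3, Dcx went from 33.9% ± 0.673 to 45.0% ± 0.505 (SD, n = 4 each) and Dclk1 from 56.4% ± 0.872 to 44.7% ± 0.980. In DMSO the larger part was thus Dclk1 in each library, with 55.3% to 57.4%. In DS38 the shares of these genes overlapped, with 44.3% to 45.4% for Dcx and 43.7% to 46.0% for Dclk1. Not divided by length, Dclk1 stayed above Dcx in every DS38 library, at 204 to 222 CPM against 171 to 181 CPM. The levelling thus rests on the gene lengths used, 12647 bases for Dcx and 15296 for Dclk1. The shift in share was similar in plain counts, at 11.1 points for Dcx and -11.6 for Dclk1. A two-sided exact permutation test gave p = 0.0286 for either share, the smallest that 4 against 4 libraries allow, and 0.0286 after adjustment over the 6 shares examined. Dclk2, a further doublecortin-like kinase gene, stood at 30.8 ± 0.795 and 32.0 ± 1.88 CPM (edgeR adjusted p = 0.452). Dclk3, Dcdc2a and Rp1 were each under 0.5 CPM on average in both groups and fell below the filter.

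Tubb3 encodes the beta-tubulin isotype that marks neurons. It stood at 54.4, 48.2, 44.1 and 43.6 CPM in DMSO and 60.9, 59.9, 56.4 and 66.0 CPM in DS38. DMSO replicate 1 came within 2 CPM of the lowest treated library, and the groups did not overlap. The log2FC was 0.35 ± 0.067 (SE, edgeR adjusted p = 8.46e-04). Among the 8 beta-tubulin genes, Tubb3 held 4.12% ± 0.162 of the reads per length in DMSO and 5.21% ± 0.266 in DS38 (two-sided exact permutation p = 0.0286, and 0.0286 adjusted over the 6 shares). Tubb5, the isotype of dividing and most other cells, was the largest part, at 64.8% ± 0.701 in DMSO and 54.9% ± 0.448 in DS38, and Tubb2b, abundant in developing neurons, stood at 18.1% ± 0.376 and 24.2% ± 0.907. Tubulin isotypes have very similar coding sequences, and the treatment of reads that match several genes is not given in the sources used here, so the split between isotypes is uncertain.

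**Figure D2:**
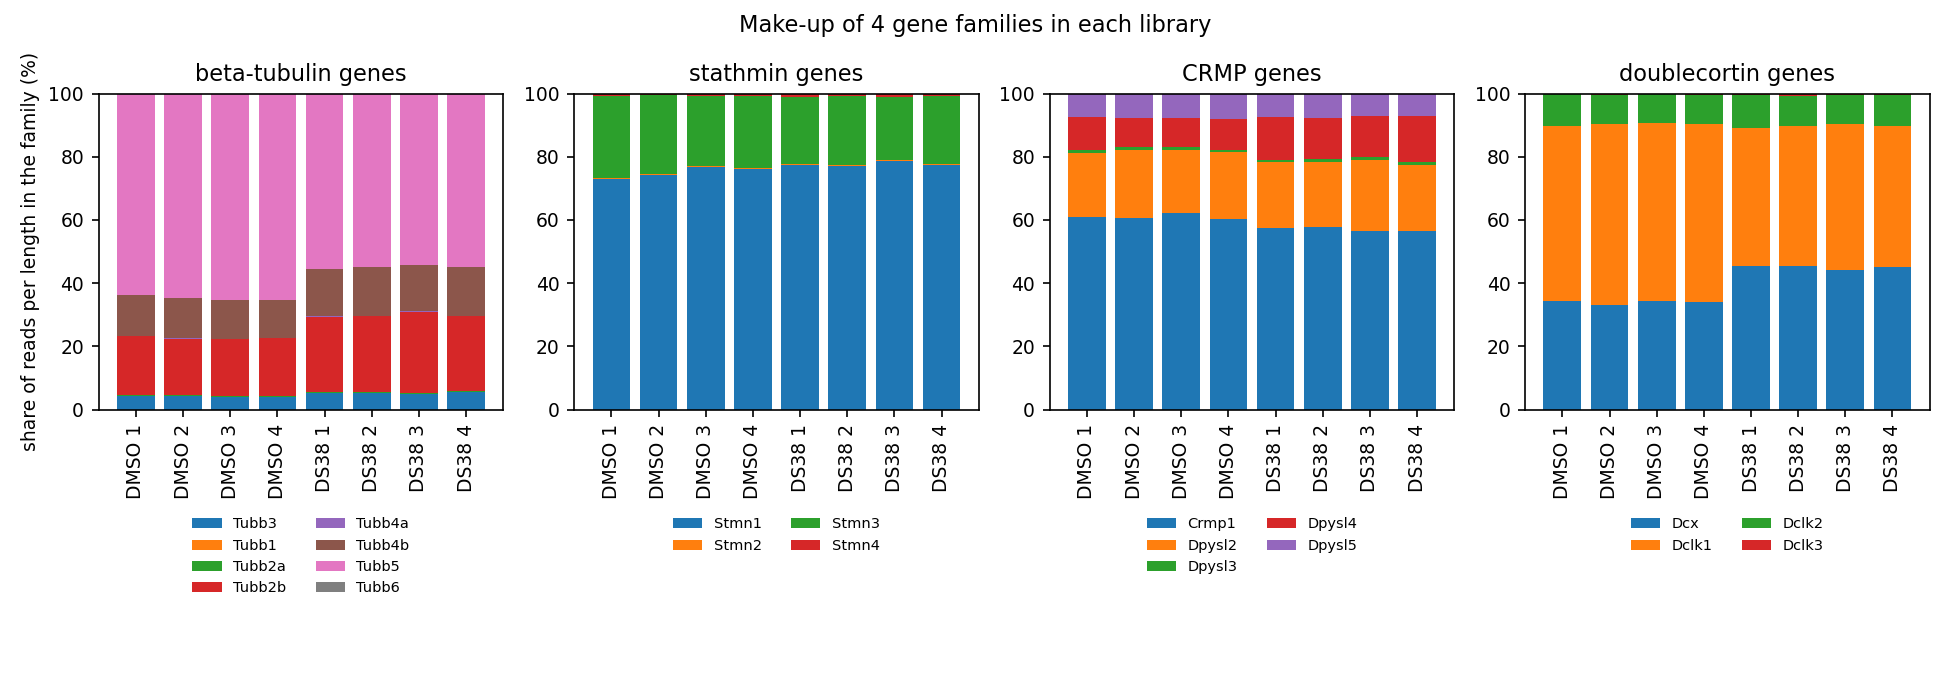
Share of reads per length (vertical axis, percent) that each gene took within the beta-tubulin, stathmin, CRMP and doublecortin genes, with 1 stacked bar per library. Dcx takes 32.9% to 34.4% of the doublecortin bar in the DMSO libraries and 44.3% to 45.4% in the DS38 libraries.

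Map2, Mapt and Map1b encode the main structural microtubule-associated proteins of neurons, Map2 chiefly in dendrites, Mapt (tau) chiefly in axons and Map1b early in axon growth. Map2 stood at 87.5, 86.1, 87.5 and 85.8 CPM in DMSO and 96.6, 106, 101 and 100.2 CPM in DS38. The control values lay within 2 CPM of each other, and all treated values were higher (log2FC 0.22 ± 0.040 SE, edgeR adjusted p = 2.69e-04). Mapt had the largest fold change of the 10, at 15.8, 12.8, 14.7 and 17.8 CPM in DMSO and 24.1, 25.3, 24.0 and 18.6 CPM in DS38. DS38 replicate 4 lay well below the other treated libraries and just above the highest control (log2FC 0.60 ± 0.108 SE, edgeR adjusted p = 7.58e-04).

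Map1b varied widely inside both groups, at 358, 324, 359 and 416 CPM in DMSO and 487, 549, 453 and 426 CPM in DS38. The highest control, replicate 4, came close to the lowest treated library, also replicate 4, and the groups did not overlap. Its log2FC was 0.40 ± 0.095 (SE, edgeR adjusted p = 0.0108). Without both libraries numbered 1, which lay highest on the second principal component, the log2FC of Map1b was 0.38. Its call was then lost (edgeR adjusted p = 0.111), the only member call lost in that setting. Across all tested genes, which are not independent replicates, log2FC increased with gene length (Spearman's rho 0.223), and Map2, Dclk1, Map1b and Dcx are long transcripts. With an offset that removed this trend, the log2FC was 0.13 for Map2 (edgeR adjusted p = 0.0286), 0.31 for Map1b (1.07e-04), 0.34 for Dcx (6.53e-08) and -0.42 for Dclk1 (4.63e-08), so all 4 calls remained and the rise of Map2 was smaller by over 1.5 times. The offset also moved short genes. Stmn3, the shortest of the 10, went from -0.44 to -0.32 (edgeR adjusted p = 0.0240), while Tubb3 and Gap43 had larger rises, at 0.41 and 0.50.

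Stmn2 and Stmn3 encode neuronal stathmins, membrane-anchored relatives of stathmin. Stmn3 stood at 89.8, 81.1, 70.5 and 71.1 CPM in DMSO and 56.6, 60.0, 53.9 and 60.7 CPM in DS38. All treated libraries were below all controls, and the controls were the more scattered group (log2FC -0.44 ± 0.074 SE, edgeR adjusted p = 5.29e-04). Stmn2 was barely expressed, with 83 to 156 counts per library. Its values were 5.42, 5.91, 4.51 and 5.15 CPM in DMSO and 5.53, 5.37, 5.36 and 5.31 CPM in DS38, and the treated values lay inside the control range. The log2 difference was 0.03 ± 0.114 (SE, edgeR adjusted p = 0.845), and 0 of 20 settings called it.

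The other 2 stathmins also split. Stmn1, the ubiquitous member abundant in dividing cells, fell from 411 ± 9.46 to 359 ± 10.3 CPM (SD, n = 4 each; log2FC -0.19, edgeR adjusted p = 5.35e-04). Stmn4, another neuronal member, rose from 3.32 ± 0.692 to 4.35 ± 0.0397 CPM (log2FC 0.39, edgeR adjusted p = 0.0456). The call of Stmn4 was lost in DESeq2 (adjusted p = 0.0658), without the filter (0.0556) and without any one of 6 libraries, with adjusted p-values up to 0.177 without DMSO replicate 2, where the log2FC was 0.25. Stmn3 took 24.0% ± 1.87 of the reads per length of the 4 stathmin genes in DMSO and 21.1% ± 0.682 in DS38, while Stmn2 took 0.328% ± 0.0341 and 0.399% ± 0.0183 (two-sided exact permutation p = 0.0286 for either share, and 0.0286 adjusted over the 6 shares). Neither the share of Stmn2 nor that of Stmn3 was called when any one DS38 library was left out (exact permutation, adjusted p = 0.0571 to 0.0857). Their differences were then 0.0640 to 0.0784 points for Stmn2 and -3.14 to -2.62 for Stmn3. With so few libraries the exact p-value moves in coarse steps, so a lost call there says little about any one library. The larger share of Stmn2 went with lower levels of Stmn1 and Stmn3, and the level of Stmn2 itself was not called.

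Gap43 encodes a membrane protein concentrated in growth cones, where it acts on the actin skeleton. Its values were 130.1, 132, 138 and 124 CPM in DMSO and 159.6, 185, 174 and 181 CPM in DS38. DS38 replicate 1 was the lowest treated library and still well above every control (log2FC 0.42 ± 0.047 SE, edgeR adjusted p = 1.84e-06). Per kilobase of gene length it was the most abundant of the 10 genes in both groups.

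Crmp1 encodes a collapsin response mediator protein, a tubulin-binding relay of semaphorin signals. It stood at 498, 472, 491 and 465 CPM in DMSO and 536, 518, 514 and 529.7 CPM in DS38. The groups did not overlap, but the difference was the smallest of the called ones (log2FC 0.12 ± 0.038 SE, edgeR adjusted p = 0.0162). The call was lost without DMSO replicate 4 (adjusted p = 0.0562).

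Of 4 relatives of Crmp1 tested, 3 rose and 1 did not pass, with a median log2FC of 0.26, where 18.8% of all genes tested rose. Dpysl4 went from 64.9 ± 5.37 to 106 ± 7.70 CPM (SD, n = 4 each; log2FC 0.70, edgeR adjusted p = 3.25e-07). Dpysl2, which binds tubulin dimers in growing axons, had a log2FC of 0.24 (edgeR adjusted p = 1.26e-04) and Dpysl5 one of 0.15 (0.0068). Dpysl3 was not called (log2 difference 0.27, edgeR adjusted p = 0.076), though it was without DS38 replicate 1 (adjusted p = 0.00871), without both libraries numbered 1 (0.0272) and with scaling by library totals (0.0297). Crmp1 remained the main CRMP transcript while its share of the 5 genes went from 60.9% ± 0.784 to 57.0% ± 0.673 (two-sided exact permutation p = 0.0286, and 0.0286 adjusted over the 6 shares).

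**Figure D3:**
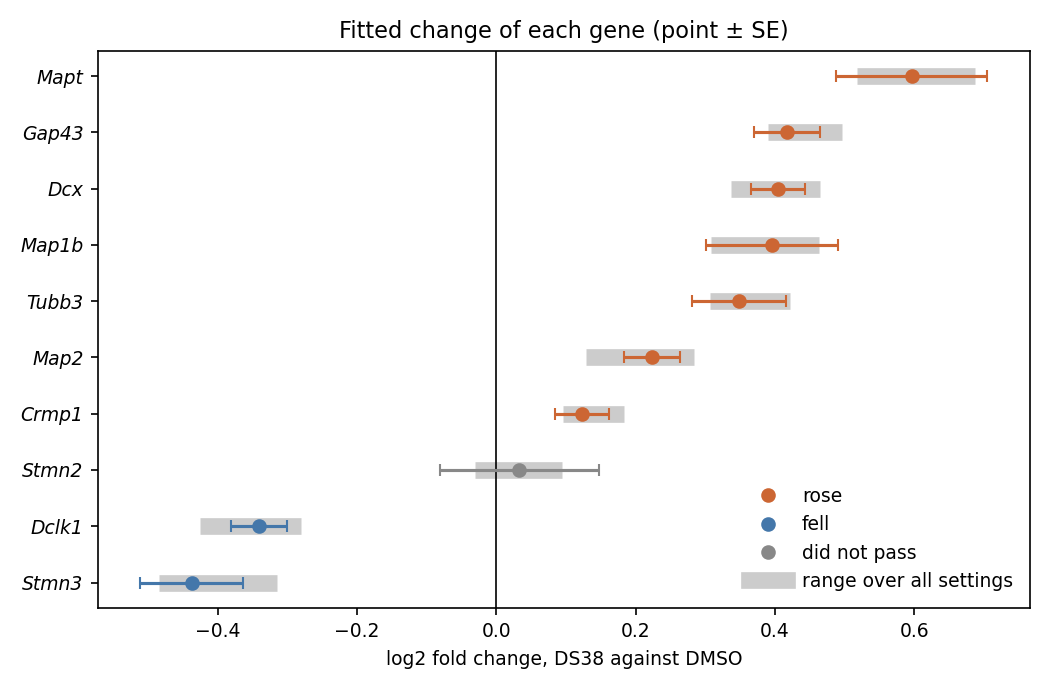
Log2 fold change of each gene, DS38 against DMSO (horizontal axis), as a point with its SE, over a grey bar that spans the values under all 20 settings. Mapt lies highest at 0.60 and Stmn3 lowest at -0.44, and the grey bar crosses 0 only for Stmn2.

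Levels can be compared between genes only per length. In DMSO, Gap43 stood at 85.9 ± 3.70, Stmn3 at 68.8 ± 8.08 and Crmp1 at 68.3 ± 2.18 CPM per kilobase (SD, n = 4 each). They were followed by Tubb3 at 25.5 ± 2.68, Map1b at 23.0 ± 2.40, Dclk1 at 17.5 ± 0.612 and Dcx at 10.5 ± 0.373 CPM per kilobase. Map2 at 5.27 ± 0.0546, Mapt at 2.03 ± 0.278 and Stmn2 at 0.937 ± 0.104 CPM per kilobase were the lowest. Stmn3 and Crmp1 overlapped, as did Tubb3 and Map1b, while the other neighbours in the order did not.

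The order changed at a pair of places in DS38. Crmp1, at 74.4 ± 1.40 CPM per kilobase, stood above Stmn3, at 50.9 ± 2.80, with no overlap. Dcx, at 13.9 ± 0.339, drew level with Dclk1, at 13.8 ± 0.510, and their libraries overlapped, as did those of Tubb3 and Map1b. Gap43 reached 115 ± 7.22 CPM per kilobase, Tubb3 32.5 ± 2.14, Map1b 30.2 ± 3.35, Map2 6.15 ± 0.247 and Mapt 3.05 ± 0.400, and Stmn2 was at 0.962 ± 0.0168. Gene length here is that of all exons of a gene together, which understates genes read mainly as shorter transcripts.

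**Figure D4:**
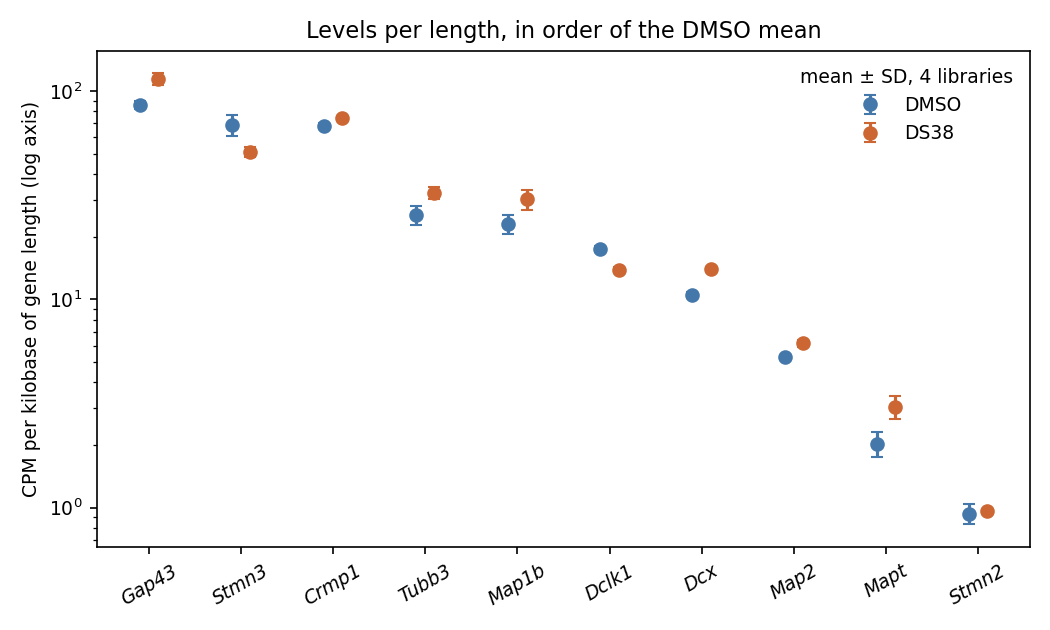
CPM per kilobase of gene length (vertical log axis) of the 10 genes in order of the DMSO mean, with points for the group means and bars for the SD of 4 libraries. The levels span from 0.937 for Stmn2 to 85.9 for Gap43 in DMSO.

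The 10 genes were set beside 11 lists of other genes of the same machinery, with 135 members, of which 123 were tested, 38 rose, 20 fell and 65 did not pass. Over all genes tested 18.8% rose and 20.7% fell, 39.5% in either direction. The median log2FC of the 123 was 0.07. Scaling by library totals only gave 53 rises and 13 falls. Among 14 tested other tubulin genes, 5 rose and 4 fell (median log2FC 0.13). Tuba4a, an alpha-tubulin gene, rose from 5.78 ± 0.495 to 11.8 ± 1.02 CPM (log2FC 1.04, edgeR adjusted p = 1.62e-07) and Tubb2b from 257 ± 21.9 to 346 ± 5.83 CPM (0.43, adjusted p = 2.44e-06). Tuba1b, a widely expressed alpha-tubulin gene, fell from 538 ± 44.4 to 433 ± 16.3 CPM (log2FC -0.31, edgeR adjusted p = 1.27e-04).

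Among 15 other genes for microtubule-associated proteins, 3 rose, 0 fell and 12 did not pass (median log2FC 0.13). For comparison, 18.8% of all genes tested rose and 20.7% fell, so the rises in this list were near the share over all genes. Map1a, the close relative of Map1b that is typical of mature neurons, rose from 43.4 ± 1.35 to 78.9 ± 5.89 CPM (log2FC 0.87 ± 0.052 SE, edgeR adjusted p = 4.77e-10). The others were Map7d3 (log2FC 0.58) and Map1lc3b, which encodes an autophagy protein (0.13), and the call of Map1lc3b was lost in 6 settings. Genes of proteins that follow growing microtubule ends rose in 8 of 18 cases and fell in 1 (median log2FC 0.17), against the same 18.8% and 20.7%. Ckap5, which encodes a microtubule polymerase, had a log2FC of 0.33 (edgeR adjusted p = 1.30e-05), Slain1 0.32 (1.95e-05) and Clip2 0.33 (4.41e-05).

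Of 9 tested genes for severing or for capping of minus ends, 1 rose and 3 fell (median log2FC -0.01), near the 39.5% called over all genes. The minus-end gene Camsap3 rose (log2FC 0.59), and the severing enzyme gene Spast (-0.25) and its relative Fignl1 (-0.18) fell, with edgeR adjusted p-values up to 0.00179. Of 13 tested genes for tubulin-modifying enzymes, 4 rose and 0 fell (median log2FC 0.10), where 18.8% and 20.7% of all genes did. Those that rose included the polyglutamylase subunit gene Ttll1 (log2FC 0.38), the tubulin acetyltransferase gene Atat1 (0.36) and the deacetylase gene Sirt2 (0.25).

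Growth cone membrane and actin genes rose in 9 of 16 tested cases and fell in 4 (median log2FC 0.15), where 18.8% and 20.7% of all genes did. Nrn1, which encodes the neurite-promoting protein neuritin, went from 68.8 ± 7.24 to 106 ± 3.90 CPM (log2FC 0.62, edgeR adjusted p = 1.30e-06). Dbn1, the drebrin gene, whose protein joins actin to microtubule ends, had a log2FC of 0.42 (edgeR adjusted p = 1.25e-06). Fez1, which encodes a kinesin adaptor for axonal transport, fell from 169 ± 7.08 to 123 ± 9.71 CPM (log2FC -0.46, edgeR adjusted p = 2.25e-06).

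Of 17 tested kinase genes whose products or regulated partners phosphorylate microtubule-associated proteins, 1 rose, 5 fell and 11 did not pass (median log2FC -0.06), near the 39.5% called over all genes. Stk11, which encodes an upstream kinase of the Mark and Brsk families, rose (log2FC 0.19), and Mark1 (-0.25) and Gsk3a (-0.20), whose products phosphorylate tau, fell. Of 14 neuronal RNA regulators and silencers, 3 rose, 2 fell and 9 did not pass (median log2FC 0.01), again near 39.5%. Elavl3, which encodes a neuronal RNA-binding protein, rose from 237 ± 8.73 to 298 ± 7.72 CPM (log2FC 0.33, edgeR adjusted p = 3.41e-06). Rest, which encodes a silencer of neuronal genes, rose as well (log2FC 0.17, edgeR adjusted p = 0.00504), and the RNA-binding protein gene Celf4 fell (-0.30, adjusted p = 0.00149).

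**Figure D5:**
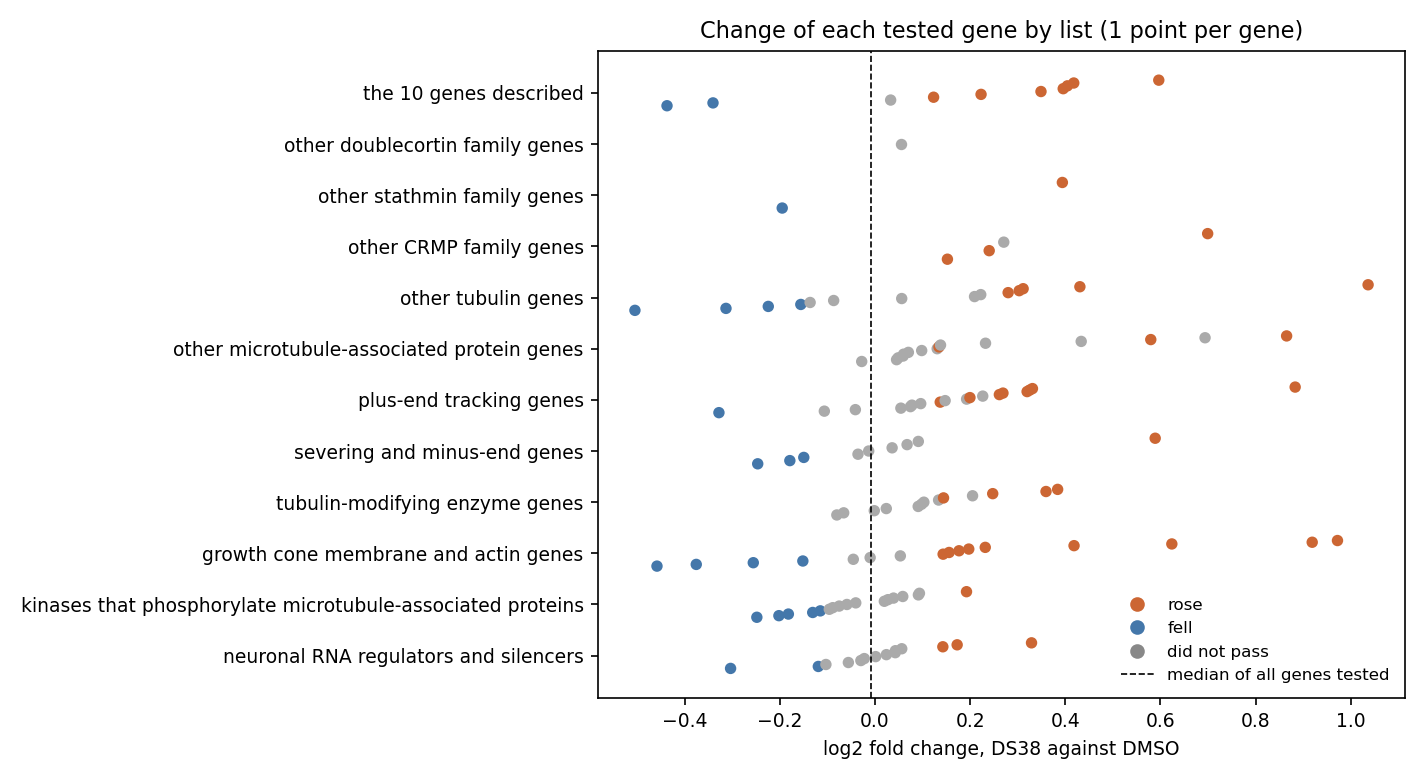
Log2 fold change, DS38 against DMSO (horizontal axis), of each tested gene in the 10 genes described and in 11 lists of related genes, coloured by call, with a dashed line at the median of all genes tested. Tuba4a lies farthest to the right at 1.04. Among the 17 kinases tested 5 fell and 1 rose, near the 39.5% called over all genes.

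Other markers moved with the treatment. The 8 markers of cycling cells summed to 3909 to 4043 CPM in DMSO and 3525 to 3798 CPM in DS38. Of these, 4 were lower, 1 was higher and 3 did not pass, where 20.7% of all genes tested fell and 18.8% rose. Pcna, Rrm2, Mcm5 and Top2a fell, and Ccnb1 rose (log2FC 0.28, edgeR adjusted p = 2.63e-05). Mki67, Ccna2 and Mcm2 did not pass, so the cycling markers did not move as 1 set. The 8 oligodendrocyte lineage markers summed to 86.2 to 92.4 CPM in DMSO and 63.6 to 68.5 CPM in DS38, of which Pdgfra made up most, at 73.3 and 51.1 CPM, while Sox10 stood at 0.0236 and 0.0191 CPM. The 10 progenitor markers summed to 1842 to 1884 CPM in DMSO and 2056 to 2119 CPM in DS38. Of these, 6 rose and 2 fell, where 18.8% and 20.7% of all genes did, with Atoh1 higher (log2FC 0.60, edgeR adjusted p = 9.09e-10) and Gli1 lower (-0.60, 2.65e-09). Among the astrocyte markers Gfap rose from 1.83 to 3.07 CPM (edgeR adjusted p = 0.00421) and Slc1a3 fell from 119 to 109 CPM (adjusted p = 0.00831). The 6 fibroblast and mural markers summed to 2.07 to 2.83 CPM in DMSO and 3.22 to 4.49 CPM in DS38, and Col1a1 rose from 0.233 to 0.798 CPM (edgeR adjusted p = 0.0016). The endothelial marker Tek rose from 0.318 to 0.747 CPM (edgeR adjusted p = 0.0295), with groups that overlapped. The part of these shifts in the values of the 10 genes was not tested.

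For the 3 genes of largest change, the tested gene with the nearest profile over the 8 libraries was sought among 10921 others with a mean of at least 4 CPM, by the Euclidean distance of log2 CPM from the DMSO mean. For Mapt it was Akap5, a postsynaptic anchoring protein gene (distance 0.231, log2FC 0.55). For Stmn3 it was Rpl18, a ribosomal protein gene (0.138, log2FC -0.42), and for Gap43 it was Fan1, a DNA repair nuclease gene (0.139, log2FC 0.41).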

How the data were processed

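The deposited table holds counts per gene for 8 libraries, with the length of each gene in bases, per the file headers. The counts were assumed to be raw. Per the submitters' processing notes, featureCounts (Subread 2.0.3), edgeR, R 4.1.0 and STAR 2.7.9a were used, with the builds GRCh38.p13 and GRCm39 listed without a role. Not given in the sources used here are the strand setting, the annotation release and how reads with several matches were counted. In a GENCODE annotation of an earlier build, exons of Dclk1 and Map2 overlapped genes on the opposite strand, over less than 1% of their length, and those genes had at most 20 counts in all.

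Of 55416 identifiers, 52083 were matched to a symbol in that annotation. The test of DS38 against DMSO was the robust quasi-likelihood test of edgeR 4.0.16 under R 4.3.3, with TMM factors, filterByExpr at a minimum of 10 counts and Benjamini-Hochberg adjustment over the 15133 genes kept, and were called at an adjusted p under 0.05. The SE of a log2 fold change was taken as its size over the root of F. Shares of a family used counts divided by gene length, with a two-sided exact permutation test over the libraries. The fits were tested on simulated data first. That simulation gave every gene the same spread and no length trend. Its required recovery was set for changes larger than any among the 10 genes, so it does not settle how well changes of their size are found. The alternatives used DESeq2 1.42.0, limma 3.58.1, other scalings, filters and a length offset, the replicate number as a block, and fewer libraries.

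The 10 genes and the 11 lists were chosen with earlier results of these data known. The genes named besides the 10 were the rest of the doublecortin, stathmin and CRMP families, up to 3 genes with the smallest p in each other list, and the nearest profiles. Tubb5, Slc1a2, Slc1a3 and the markers fall outside that rule, and Tubb5 was named after its values were seen.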

Additional observations from a re-analysis of the deposited data

Results flagged for a closer look

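In 108 groups of 4 libraries, one for each named gene, share or read total in each treatment, 5 held a library far from the other 3 by Dixon's test at the 95% level, where chance alone flags about 1 in 20. Map1a stood at 87.7 CPM in DS38 replicate 2 and at 75.8 to 76.3 CPM in the other DS38 libraries. Map1lc3b was at 115 CPM in DS38 replicate 3, below 120.4 to 121 CPM in the others. Dpysl3 was at 5.99 CPM in DS38 replicate 1, below 8.22 to 8.41 CPM in the others. Dcdc2a at 0.0419 CPM in DS38 replicate 1 and Rp1 at 0.0344 CPM in DS38 replicate 2 had no counts in the other DS38 libraries. In such a group any count at all is flagged, and both genes fell below the filter. None of the 10 genes had such a library.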

How the results depend on the processing

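Over the 20 settings, the reported one included, Dcx, Dclk1, Tubb3, Map2, Mapt, Stmn3 and Gap43 passed in 20, Map1b in 19, Crmp1 in 18 and Stmn2 in 0. Each called gene kept its direction in all of them. Leaving out 1 library gave 6 to 7 rises and 2 falls among the 10 genes, and 35 to 42 rises and 16 to 20 falls among the related genes. With libraries scaled by their totals alone, 13 related genes fell in place of 20 and 53 rose in place of 38. The replicate block gave the same 7 rises and 2 falls among the 10 genes and 5594 calls over all genes in place of 5980. Correlations of the deviations of same-numbered libraries were 0.331, -0.0699, 0.067 and -0.0816 for numbers 1 to 4, and not every library correlated best with its own number, so the numbers were not taken to pair the libraries. With the block and the length offset together, Crmp1 was not called (edgeR adjusted p = 0.0677) and 6 of the 10 genes rose. For the shares, sign flips within the replicate block left the differences at 1.09 points for Tubb3, 0.0713 for Stmn2, -2.95 for Stmn3, -3.87 for Crmp1, 11.1 for Dcx and -11.7 for Dclk1, with an exact p = 0.125 for each, the smallest that 4 pairs allow. With 1 library left out, the share difference was 0.0576 to 0.0849 points for Stmn2 and -3.59 to -2.24 points for Stmn3, and both adjusted p-values were above the threshold without any one DS38 library, at 0.0571 to 0.0857 by exact permutation. The other shares differed by 0.965 to 1.17 points for Tubb3, -4.07 to -3.49 for Crmp1, 10.8 to 11.3 for Dcx and -12.2 to -11.3 for Dclk1.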
